A study of Homo sapiens with 6 samples.

Results

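The cellular response to low oxygen and the glycolytic pathway that it feeds were described here through 37 genes, chosen by name from the 56478 gene rows of a raw RNA-seq count table. They comprised 4 genes for hypoxia-inducible factors and prolyl hydroxylases that control them, 12 other hypoxia targets, 4 genes for glucose transporters and PFKFB enzymes, and 17 glycolytic enzymes. The libraries came from BT20, an established human breast cancer cell line that is described as triple negative and basal-like. The 3 libraries labelled shCK5-22 (BT20 cells with the vector pLK0 and a hairpin against keratin 5, the product of KRT5) were compared with 3 libraries labelled shControl (BT20 cells with pLK0-shControl). The medium with fetal bovine serum was common to both groups, no further treatment was given and the labels state no oxygen level, so these are levels in standard culture and not a hypoxia experiment. The knockdown rests on 1 hairpin in 1 cell line, and the labels do not say whether the replicates came from separate cultures or infections.

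In well-oxygenated cells, prolyl hydroxylases mark the alpha subunits of hypoxia-inducible factors (HIFs) for destruction. When oxygen is short the subunits accumulate, pair with ARNT and bind a short DNA core, A or G followed by CGTG, near genes for blood vessel growth, pH control, mitochondrial turnover, collagen processing and glucose use. HIF activity is set largely at the protein level, so mRNA levels of the HIF genes report it poorly, and many tumour cells run glycolysis at a high rate even with oxygen present. Most glycolytic enzymes are also driven by regulators other than HIFs, MYC among them.

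The libraries held between 47622067 and 65429616 counts. KRT5, the targeted gene, had 21.05, 22.7 and 24.1 CPM (counts relative to the library size, here scaled by the trimmed mean of M values) in shCK5-22 libraries, against 231, 247 and 244 CPM in shControl libraries, and was lower in every library with the hairpin (log2 fold change −3.41, adjusted p = 1.23e-20 by edgeR's quasi-likelihood test with Benjamini-Hochberg adjustment over 18008 genes). The library shCK5-22 replicate 1 stood apart from the other 2 of its group, with a chi-square per degree of freedom of 33.7 and 19.8 against them, where the other within-group pairs lay between 3.47 and 5.08. Without it, 10 of the members described below were higher and 5 lower, against 9 and 8 with it.

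Of 5 epithelial markers, 2 were lower, where 34.2% of all genes tested passed in either direction. KRT19 averaged 1158 CPM in shCK5-22 and 1792 CPM in shControl libraries (log2 fold change −0.63, adjusted p = 5.45e-08, edgeR), and CDH1 429 CPM in shCK5-22 and 553 CPM in shControl libraries (−0.37, adjusted p = 1.48e-09, edgeR). EPCAM, KRT8 and KRT18 had log2 fold changes of 0.01, 0.05 and 0.06 and did not pass, and the 5 summed to between 7200 and 7720 CPM in shCK5-22 and between 7830 and 8270 CPM in shControl libraries. Leukocyte markers summed to between 0.908 and 1.07 CPM in shCK5-22 and between 0.92 and 1.31 CPM in shControl libraries.

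Of 5 fibroblast markers, 2 were higher, both at low levels, and 1 lower, against 34.2% of all genes called. PDGFRB had 1.23, 0.77 and 1.249 CPM in shCK5-22 libraries, against 0, 0.092 and 0.0634 CPM in shControl libraries (adjusted p = 5.81e-07, edgeR), and LUM had 0.399, 0.268 and 0.454 CPM in shCK5-22 libraries, against 0.0832, 0.0613 and 0.159 CPM in shControl libraries (adjusted p = 0.00745, edgeR). COL1A1, nearly all of the list's sum, averaged 26.95 CPM in shCK5-22 and 32.0 CPM in shControl libraries (log2 fold change −0.25, adjusted p = 0.00055, edgeR), and THY1 was listed at 0. The list summed to between 28 and 29.1 CPM in shCK5-22 and between 31.3 and 32.7 CPM in shControl libraries. Of 5 endothelial markers, PECAM1 was lower, with 2.97, 1.59 and 1.89 CPM in shCK5-22 libraries against 6.41, 3.19 and 5.47 CPM in shControl libraries (log2 fold change −1.20, adjusted p = 0.0429, edgeR). CDH5 made up most of the endothelial sum, which was between 19.4 and 31.5 CPM in shCK5-22 and between 23.9 and 31.5 CPM in shControl libraries, and did not pass. The part of these markers in the results below was not tested. In bulk RNA, fewer cells of a type and less RNA per cell cannot be told apart.

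Promoters of 5 members, picked by hand, are printed as examples: ANGPTL4 and ADM, which were higher in shCK5-22 libraries, CA9 and PFKFB4, which were lower, and LDHA, a glycolytic enzyme with no call. Each runs 5′ to 3′ on the gene's strand over 300 bases, 250 before and 50 after the RefSeq start (GRCh38.p14), and capitals mark the letters ACGTG or GCGTG on either strand, where the palindrome CACGTG holds an overlapping match on each strand.
ANGPTL4, chr19:8363905-8364204, plus strand: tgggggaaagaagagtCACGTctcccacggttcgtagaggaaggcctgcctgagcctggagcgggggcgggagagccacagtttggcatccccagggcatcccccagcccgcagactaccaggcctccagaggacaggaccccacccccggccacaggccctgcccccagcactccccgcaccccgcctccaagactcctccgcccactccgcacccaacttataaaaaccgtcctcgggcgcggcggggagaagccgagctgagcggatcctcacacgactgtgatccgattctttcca
ADM, chr11:10304823-10305122, plus strand: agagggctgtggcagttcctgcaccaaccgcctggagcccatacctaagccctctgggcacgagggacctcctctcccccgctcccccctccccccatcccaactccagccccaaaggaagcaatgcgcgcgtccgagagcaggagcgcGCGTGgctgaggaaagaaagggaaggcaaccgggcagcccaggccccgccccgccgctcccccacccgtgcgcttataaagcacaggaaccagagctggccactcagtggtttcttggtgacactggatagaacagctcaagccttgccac
CA9, chr9:35673678-35673977, plus strand: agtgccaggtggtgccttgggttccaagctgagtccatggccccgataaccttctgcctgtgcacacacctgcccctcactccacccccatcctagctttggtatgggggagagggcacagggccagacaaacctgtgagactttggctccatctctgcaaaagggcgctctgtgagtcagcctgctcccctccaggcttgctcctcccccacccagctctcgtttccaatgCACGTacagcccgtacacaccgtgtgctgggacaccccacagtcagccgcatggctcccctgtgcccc
PFKFB4, chr3:48556754-48557053, minus strand: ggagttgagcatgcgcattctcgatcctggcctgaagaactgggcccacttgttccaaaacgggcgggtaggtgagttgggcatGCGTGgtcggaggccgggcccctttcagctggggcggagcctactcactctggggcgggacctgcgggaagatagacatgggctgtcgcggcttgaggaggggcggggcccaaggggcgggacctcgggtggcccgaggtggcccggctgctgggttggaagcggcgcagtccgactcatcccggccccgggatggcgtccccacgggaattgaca
LDHA, chr11:18394313-18394612, plus strand: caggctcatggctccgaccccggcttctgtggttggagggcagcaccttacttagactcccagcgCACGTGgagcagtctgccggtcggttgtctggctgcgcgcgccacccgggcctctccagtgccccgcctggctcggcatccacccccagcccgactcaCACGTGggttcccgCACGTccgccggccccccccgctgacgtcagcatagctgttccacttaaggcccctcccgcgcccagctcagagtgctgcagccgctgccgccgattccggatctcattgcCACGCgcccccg
The CA9 match begins 18 bases before the start, whereas the match in ANGPTL4 begins 234 bases before it. LDHA held more matches than any of the other 4 printed promoters, and of these 5 genes its level differed least between the groups. A relation of matches to levels was not tested.

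The RefSeq table held a promoter for 33 of the 37 genes, and 30 of those 33 had the motif in at least 1 window. By window, 39 of 56 held it (69.6%), against 48.4% of all 35116 promoter windows. For the other hypoxia targets it was 9 of 10 windows, and for the glycolytic enzymes 23 of 37 (62.2%). A match of 5 letters is a description of these windows, not a binding site.

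Of the 35 genes tested, 17 passed an adjusted p of 0.05: 9 were higher and 8 lower in shCK5-22 than in shControl libraries. Across all genes tested the share past that threshold was 34.2% (17.4% higher and 16.8% lower), so a call by itself sets no gene apart here. In 16 of the 35 the CPM of the 3 shCK5-22 libraries did not overlap those of the 3 shControl libraries, against 45.1% of all genes. The median log2 fold change of the 35 was −0.005 and the median size 0.117, where all genes had −0.006 and 0.177. The other 2 genes were not tested: CA12 had 6, 8 and 12 counts in shCK5-22 and 4, 12 and 4 counts in shControl libraries, and ALDOC was listed at 0 in all 6.

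**Figure D1:**
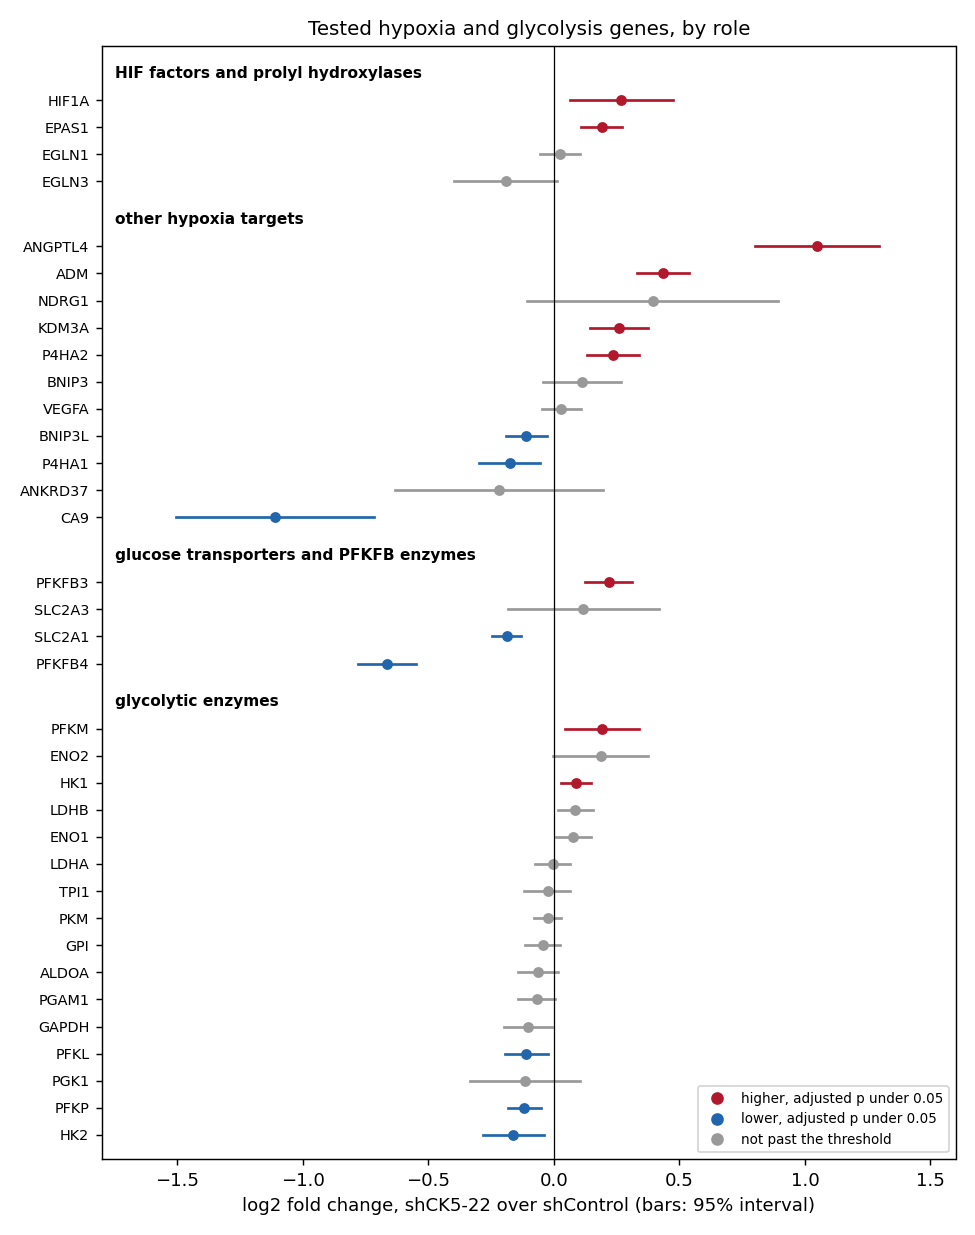
Log2 fold change of shCK5-22 over shControl libraries for the 35 tested genes, grouped by role, with bars for the 95% confidence interval of edgeR's fit. Glycolytic enzymes lie between −0.16 and 0.19, while the other hypoxia targets run between −1.11 (CA9) and 1.05 (ANGPTL4).

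The lists differed mainly in how large the changes were. Among the 11 other hypoxia targets tested, 4 were higher and 3 lower, the median size of the log2 fold change was 0.24, and the largest exceeded 2-fold in each direction. Among the 16 glycolytic enzymes tested, 2 were higher, 3 lower and 11 did not pass, with a median size of 0.09 and none beyond 0.19. These enzymes were deeply covered: 14 had a mean of at least 100 CPM and 4 of them passed, where 57.5% of all 2183 genes at that level did. Genes at that level had a median size of 0.107, against 0.177 for all genes tested. Of the other hypoxia targets only 1, VEGFA, reached it, so list and level cannot be told apart here. The difference between the lists was not itself tested, as the genes were chosen by name.

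The HIF subunits were higher in shCK5-22 libraries by small amounts. EPAS1, which encodes HIF-2 alpha (chr2:46293667-46386703, GRCh38, GENCODE 29 annotation), had 230.4, 211 and 229 CPM in shCK5-22 libraries, against 207, 189.8 and 190.5 CPM in shControl libraries. The groups did not overlap and the log2 fold change was 0.19 (SE 0.039, adjusted p = 0.000893, edgeR). HIF1A, the gene for HIF-1 alpha, had 7.10, 6.83 and 6.45 CPM in shCK5-22 libraries, against 5.89, 5.44 and 5.61 CPM in shControl libraries. Its log2 fold change of 0.27 passed (SE 0.0978, adjusted p = 0.0377, edgeR), but the call was lost on leaving out any 1 library other than shCK5-22 replicate 3 (adjusted p between 0.053 and 0.12). HIF1A-AS1, an antisense gene that overlaps part of HIF1A, went the other way, with 0.828, 0.602 and 0.757 CPM in shCK5-22 against 1.83, 2.32 and 1.92 CPM in shControl libraries (log2 fold change −1.47, adjusted p = 9.6e-06, edgeR). No source used here says whether counting used strand, so reads of HIF1A and its antisense gene may be mixed where they overlap.

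Per kilobase of exon, EPAS1 stood far above HIF1A, at 43.2 CPM per kb in shCK5-22 and 37.9 CPM per kb in shControl libraries, where HIF1A had 1.6 CPM per kb in shCK5-22 and 1.33 CPM per kb in shControl libraries. EPAS1 made up 96.44% ± 0.236 of the summed level in shCK5-22 and 96.62% ± 0.0616 in shControl libraries (SD, n = 3 each, two-sided exact permutation p = 0.4). Low listed levels need care in this table, which lists at 0 in all 6 libraries ALDOC and also 6 of 73 genes for cytosolic ribosomal proteins that every cell uses.

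EGLN1 and EGLN3, genes for prolyl hydroxylases that act on the HIF subunits, did not pass. EGLN2, for another such enzyme, is not in the set. It was listed at 0 in every library and was not tested. Of its exonic bases, 66.6% lie under other genes annotated on the same strand. EGLN1, the main oxygen sensor of most cells, had 75.6, 74.6 and 71.3 CPM in shCK5-22 libraries, against 71.5, 74.7 and 71.6 CPM in shControl libraries (95% interval of the log2 fold change −0.05 to 0.10). EGLN3, itself a classical HIF target, had 8.36, 9.33 and 7.61 CPM in shCK5-22 libraries, against 8.66, 10.9 and 9.26 CPM in shControl libraries (95% interval −0.40 to 0.01).

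A secreted lipase inhibitor and a peptide hormone rose most among the other hypoxia targets. ANGPTL4, which inhibits lipoprotein lipase and is induced by HIFs, PPARs and TGF-beta (chr19:8363289-8374373), had 8.40, 7.58 and 7.61 CPM in shCK5-22 libraries, against 3.12, 3.77 and 4.44 CPM in shControl libraries. Every shCK5-22 library lay above every shControl library, and the level was 2.07-fold higher (log2 fold change 1.05, SE 0.119, adjusted p = 4.97e-07, edgeR). ADM encodes adrenomedullin, a vasodilator peptide (chr11:10304680-10307397), and had 39.2, 40.0 and 40.7 CPM in shCK5-22 libraries, against 28.05, 29.7 and 30.8 CPM in shControl libraries. It was 1.35-fold higher, with tight replicates in both groups (log2 fold change 0.43, SE 0.0495, adjusted p = 5.46e-07, edgeR).

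VEGFA, the vessel growth factor and a classical HIF target, had 161, 142 and 152 CPM in shCK5-22 libraries, against 148, 149 and 149 CPM in shControl libraries, and the groups overlapped (95% interval of the log2 fold change −0.05 to 0.11).

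CA9 was the target that fell most. It encodes carbonic anhydrase IX, a membrane enzyme that helps cells export acid and serves as a hypoxia marker in tumours (chr9:35673856-35681159). Its counts were few, 78, 75 and 53 in shCK5-22 libraries against 98, 198 and 150 in shControl libraries, or 1.196, 1.26 and 1.00 CPM in shCK5-22 against 2.04, 3.04 and 2.38 CPM in shControl libraries. The groups did not overlap, and the level was 2.16-fold lower (log2 fold change −1.11, SE 0.189, adjusted p = 8.49e-05, edgeR). Of its exonic bases, 39.7% lie opposite exons of ARHGEF39, which itself had 18.8, 23.2 and 20.4 CPM in shCK5-22 and 22.1, 22.05 and 20.98 CPM in shControl libraries (log2 fold change −0.06, adjusted p = 0.547, edgeR), so some CA9 counts may be reads of that gene.

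Hypoxia targets that act on chromatin and collagen also changed, and the prolyl 4-hydroxylase subunits went in opposite directions. KDM3A, a histone H3 lysine demethylase (chr2:86440647-86492716), had 48.1, 53.6 and 48.75 CPM in shCK5-22 libraries, against 38.6, 44.8 and 42.05 CPM in shControl libraries (log2 fold change 0.26, SE 0.0551, adjusted p = 0.00103, edgeR). P4HA2, one of the catalytic subunits that hydroxylate collagen proline (chr5:132191838-132295315), had 42.3, 46.2 and 46.3 CPM in shCK5-22 libraries, against 36.9, 40.0 and 37.5 CPM in shControl libraries (log2 fold change 0.24, SE 0.0497, adjusted p = 0.000779, edgeR). P4HA1, the gene for another such catalytic subunit, had 31.7, 33.4 and 30.05 CPM in shCK5-22 libraries, against 33.6, 39.1 and 34.7 CPM in shControl libraries. Its log2 fold change of −0.18 (SE 0.0586, adjusted p = 0.0242, edgeR) lost the call without shCK5-22 replicate 3 (adjusted p = 0.132) or shControl replicate 2 (adjusted p = 0.198).

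Genes of mitochondrial turnover and the remaining targets changed little or varied too much between libraries. BNIP3L, a receptor for the removal of mitochondria, had 72.9, 78.2 and 74.9 CPM in shCK5-22 libraries, against 80.0, 84.0 and 79.6 CPM in shControl libraries. Its log2 fold change was −0.11 (SE 0.0385, adjusted p = 0.0328, edgeR), and the call was lost without shCK5-22 replicate 1 or 3 or shControl replicate 2 or 3 (adjusted p 0.0892, 0.0992, 0.161 and 0.0531). The related receptor BNIP3 had 68.6, 76.7 and 69.8 CPM in shCK5-22 libraries, against 59.85, 72.8 and 66.1 CPM in shControl libraries, with overlap (95% interval −0.04 to 0.27). BNIP3 did not pass in the main fit. It passed as higher by edgeR with no filter (adjusted p = 0.033), with a replicate block (0.0154) and without shControl replicate 2 (0.0179). Of its 50-base windows, 10.7% occur in other genes, mainly BNIP3P1. NDRG1, a stress-induced gene linked to differentiation, had 98.6, 133 and 105 CPM in shCK5-22 libraries, against 72.0, 99.15 and 85.0 CPM in shControl libraries, a log2 fold change of 0.39 that did not pass (SE 0.184, adjusted p = 0.198, edgeR). Replicate 2 was highest in both groups, and the 95% interval ran between −0.11 and 0.89. ANKRD37 had between 1.43 and 2.20 CPM in shCK5-22 and between 1.58 and 2.39 CPM in shControl libraries and did not pass either.

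**Figure D2:**
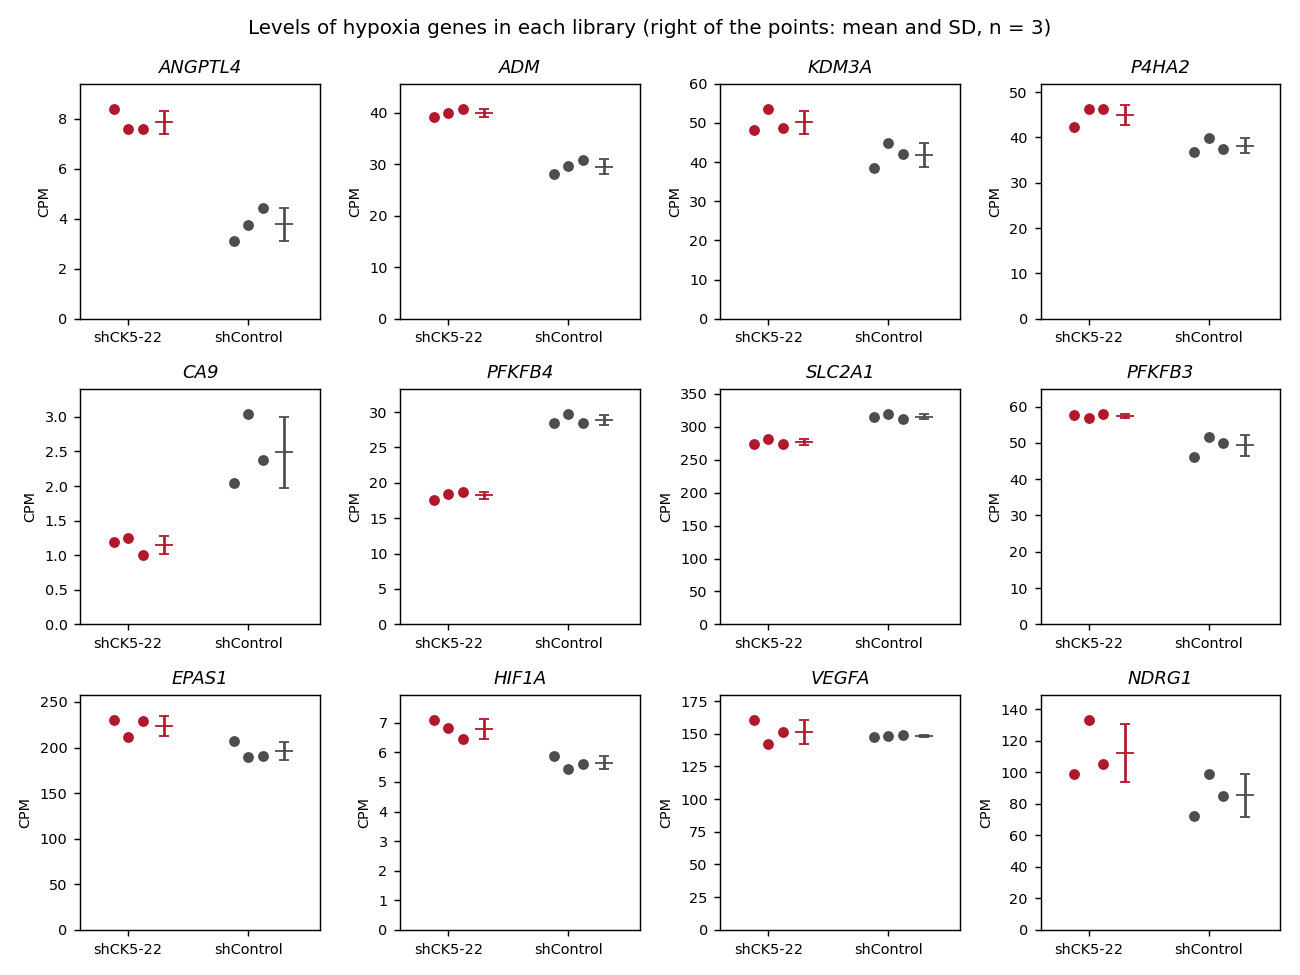
CPM of 12 members in each library (y axes start at 0), shCK5-22 left of shControl, with 1 point per library and, right of the points, the mean with its SD (n = 3). ANGPTL4, ADM, KDM3A, P4HA2, PFKFB3, EPAS1 and HIF1A sit wholly higher and CA9, PFKFB4 and SLC2A1 wholly lower in shCK5-22 libraries, while the VEGFA and NDRG1 points overlap.

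At the entry to glycolysis, the main glucose transporter fell and the PFKFB isoforms went apart. SLC2A1, the gene for GLUT1 (chr1:42925375-42959176), had 274, 282 and 275 CPM in shCK5-22 libraries, against 315, 319 and 312 CPM in shControl libraries. The groups were well separated at a small size (log2 fold change −0.19, SE 0.0279, adjusted p = 1.81e-05, edgeR). SLC2A3, the gene for GLUT3, had 3.11, 3.31 and 2.65 CPM in shCK5-22 libraries, against 2.68, 3.07 and 2.62 CPM in shControl libraries, and did not pass (95% interval −0.18 to 0.42). Of its 50-base exon windows, 23.8% are identical to windows of other genes, mainly SLC2A14, so its counts are uncertain.

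PFKFB enzymes make and break fructose 2,6-bisphosphate, the activator of phosphofructokinase. PFKFB4 (chr3:48517684-48562015) had 17.6, 18.35 and 18.7 CPM in shCK5-22 libraries, against 28.5, 29.7 and 28.5 CPM in shControl libraries, which made it 1.59-fold lower (log2 fold change −0.67, SE 0.0555, adjusted p = 5.23e-09, edgeR). PFKFB3, the isoform with the strongest kinase bias (chr10:6144934-6254644), had 57.6, 56.7 and 57.85 CPM in shCK5-22 libraries, against 46.2, 51.6 and 50.1 CPM in shControl libraries (log2 fold change 0.22, SE 0.0445, adjusted p = 0.000573, edgeR). Neither gene's groups overlapped. Per kilobase, PFKFB3 stood at 10.5 CPM per kb in shCK5-22 and 9.05 in shControl libraries, where PFKFB4 stood at 5.08 CPM per kb in shCK5-22 and 8.05 in shControl libraries.

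The glycolytic enzymes summed to 13290, 14490 and 13900 CPM in shCK5-22 libraries, against 13810, 14640 and 13970 CPM in shControl libraries, which is 1.39% of all counts in shCK5-22 and 1.41% in shControl libraries. The sums overlapped. The other hypoxia targets summed to 588.4 ± 22.2 CPM in shCK5-22 and 534.8 ± 32.2 CPM in shControl libraries (SD, n = 3 each). VEGFA, NDRG1 and BNIP3L made up the largest parts of that sum. NDRG1 averaged 112 CPM in shCK5-22 and 85.4 CPM in shControl libraries. Neither NDRG1 nor VEGFA passed, and BNIP3L was lower.

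**Figure D3:**
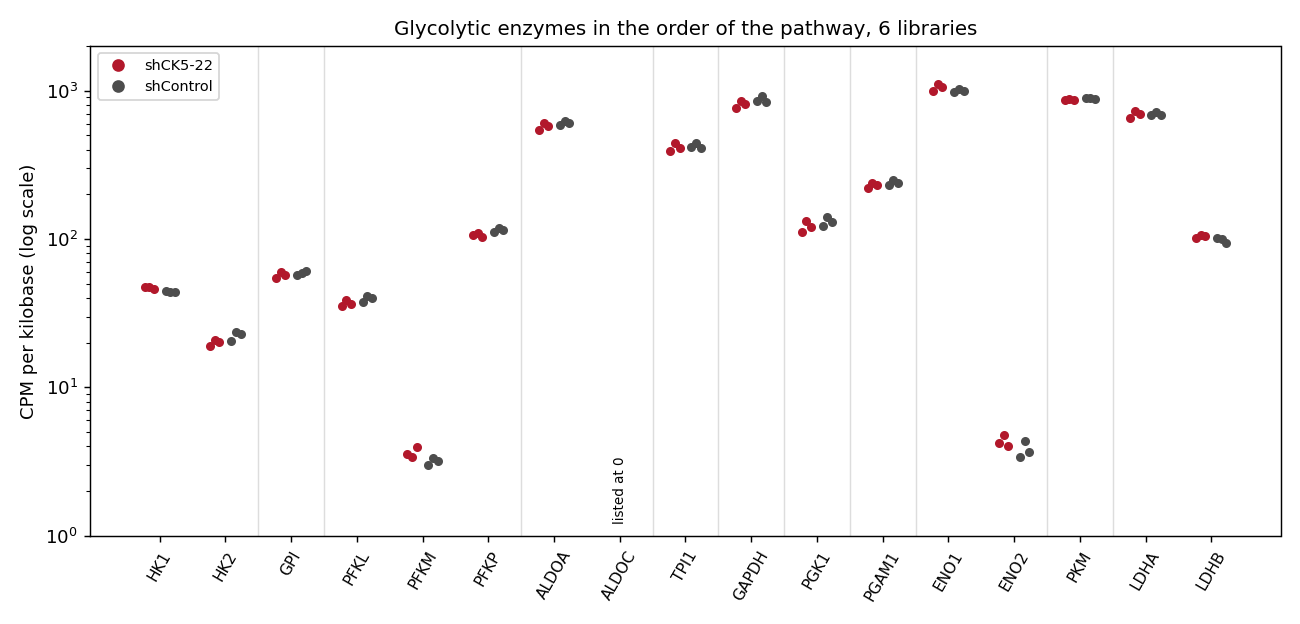
CPM per kilobase of exon (log scale) of the glycolytic enzymes in pathway order, 1 point per library, shCK5-22 left of shControl for each gene. The points of both groups lie close together for every enzyme, ENO1 stands highest, at 1050 CPM per kb in shCK5-22 and 996 in shControl libraries, PFKM and ENO2 stand lowest, and ALDOC is listed at 0.

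Without a replicate block, hexokinases and phosphofructokinases carried all 5 calls within glycolysis, each small. With the replicate number as a block, 5 enzymes were higher and 7 lower, or 75% of those tested, against 37.4% of all genes. PGK1, GAPDH and ENO1 were among those called. Of these enzymes, 14 had a mean of at least 100 CPM, a level at which 57.5% of genes passed without a block. The share of genes at that level that pass with a block was not computed. Hexokinases phosphorylate glucose on entry. HK1 had 222, 220.2 and 217 CPM in shCK5-22 libraries, against 208.5, 207 and 205 CPM in shControl libraries (log2 fold change 0.09, SE 0.0283, adjusted p = 0.0203, edgeR). HK2, the isoform that HIFs and MYC induce, had 112, 125 and 119.8 CPM in shCK5-22 libraries, against 121, 140.2 and 137 CPM in shControl libraries, with overlap (log2 fold change −0.16, SE 0.0552, adjusted p = 0.0448, edgeR). By length-scaled level, HK2 made up 29.83% ± 1.26 of HK1 plus HK2 in shCK5-22 and 33.5% ± 1.87 in shControl libraries (SD, n = 3 each). That share gave a two-sided exact permutation p of 0.1, the smallest that 3 against 3 allows, and an adjusted p of 0.3 over 6 isoform shares.

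Phosphofructokinase, the main control point of the pathway, has platelet, liver and muscle isoforms. PFKP had 399, 415 and 391 CPM in shCK5-22 libraries, against 419, 450.1 and 438 CPM in shControl libraries (log2 fold change −0.12, SE 0.0316, adjusted p = 0.00634, edgeR). PFKL had 105, 114 and 107 CPM in shCK5-22 libraries, against 111, 123 and 118.5 CPM in shControl libraries, with overlap (log2 fold change −0.11, SE 0.0406, adjusted p = 0.0427, edgeR). PFKM, the least abundant of the 3 per kilobase, had 17.1, 16.3 and 19.0 CPM in shCK5-22 libraries, against 14.4, 16.02 and 15.3 CPM in shControl libraries (log2 fold change 0.19, SE 0.071, adjusted p = 0.0409, edgeR). Of its exonic bases, 9.07% lie opposite exons of SENP1, so some PFKM counts may be reads of that gene. SENP1 averaged 38.5 CPM in shCK5-22 and 33.4 CPM in shControl libraries (log2 fold change 0.20, adjusted p = 0.0017, edgeR). The PFKP share of the 3 isoforms was 72.44% ± 0.497 in shCK5-22 and 72.9% ± 0.331 in shControl libraries (SD, n = 3 each, two-sided exact permutation p = 0.3).

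All 5 of these calls depended on single libraries. PFKP lost its call without shCK5-22 replicate 3 (adjusted p = 0.0626). HK1 lost it without shControl replicate 1, 2 or 3 (0.0524, 0.0617 and 0.0947). HK2 lost it without shCK5-22 replicate 1 or 3 or shControl replicate 2 or 3 (0.0905, 0.0953, 0.118 and 0.134). The same 4 omissions ended the PFKL call (0.107, 0.152, 0.215 and 0.143), and PFKM lost its call without shCK5-22 replicate 3 or shControl replicate 1 or 3 (0.228, 0.176 and 0.106). No direction turned among these 5.

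The other 11 enzymes tested did not pass without a block. PKM, pyruvate kinase, had 2846, 2921 and 2880 CPM in shCK5-22 libraries, against 2935, 2959 and 2901 CPM in shControl libraries (95% interval of the log2 fold change −0.08 to 0.03). LDHA, which turns pyruvate into lactate (chr11:18394388-18408425), had 1952, 2150 and 2071 CPM in shCK5-22 libraries, against 2019, 2137 and 2037 CPM in shControl libraries (95% interval −0.08 to 0.07). The groups overlapped for both, and changes larger than 0.08 on the log2 scale lie outside both intervals. ENO1, enolase 1, had the highest level per kilobase of the set, 1050 CPM per kb in shCK5-22 and 996 in shControl libraries.

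GAPDH, a common reference transcript, had 1691, 1904 and 1813 CPM in shCK5-22 libraries, against 1891, 2040 and 1877 CPM in shControl libraries (log2 fold change −0.10, adjusted p = 0.0889, edgeR). PGK1 had 557, 660.0 and 599 CPM in shCK5-22 libraries, against 610.5, 706.5 and 647 CPM in shControl libraries, with a wide interval of −0.33 to 0.11. The log2 fold changes of GPI, ALDOA, TPI1, PGAM1 and ENO2, which did not pass, lay between −0.07 and 0.19. LDHB, the heart-type lactate dehydrogenase, had 161, 169.7 and 165 CPM in shCK5-22 libraries, against 160.0, 159 and 149 CPM in shControl libraries. Its groups did not overlap, but the test did not pass (log2 fold change 0.09, adjusted p = 0.0572, edgeR).

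Several of these enzymes passed when 1 library was left out: ALDOA (adjusted p = 0.026), PGAM1 (0.0443) and GAPDH (0.00611) without shCK5-22 replicate 2, LDHB (0.0168) and ENO1 (0.0044) without shCK5-22 replicate 1, and ENO1 (0.0491) and ENO2 (0.0169) without shControl replicate 2. Copies and overlaps also limit single values: 43.1% of the 50-base windows of PGAM1 occur in other genes, as do 13.6% for TPI1 and 11.2% for GAPDH, and 84.5% of ALDOA and 62.9% of LDHB exonic bases lie under another annotated gene that the table does not hold by that name.

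The glycolytic enzymes varied together between libraries of 1 group. In 12 of the 16 (75%) the library called replicate 2 was the highest in both groups, against 14.3% of all genes tested and 30.4% of genes with a mean of at least 100 CPM. Among the other hypoxia targets it was 6 of 11 (54.5%). The labels do not say what a replicate number stands for.

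**Figure D4:**
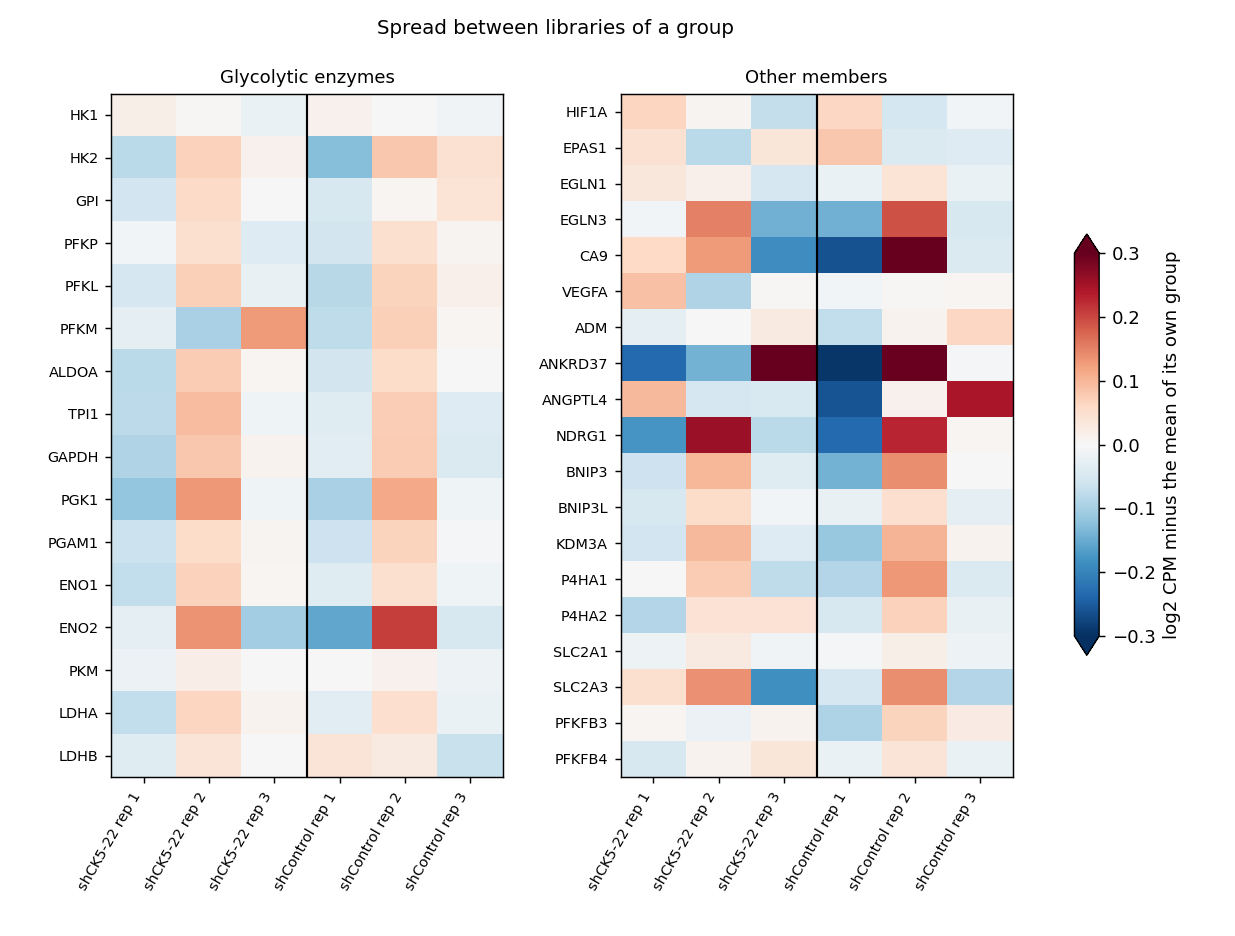
Deviation of each tested member in each library from the mean of its own group, on a log2 scale, with genes in rows and shCK5-22 libraries left of shControl libraries. Replicate 2 is the highest library of both groups for 12 of the 16 glycolytic enzymes.

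Genes around the set were read from lists of further hypoxia targets and of neighbouring pathways. Of 28 further hypoxia targets, 27 were tested, 11 were higher and 9 lower in shCK5-22 libraries (median log2 fold change 0.01), where 17.4% of all genes tested were higher and 16.8% lower. The calls went in both directions. STC1 and STC2, secreted stanniocalcins, were higher. STC1 had 35.8, 39.8 and 37.6 CPM in shCK5-22 libraries, against 16.8, 20.05 and 18.0 CPM in shControl libraries (log2 fold change 1.04, SE 0.0632, adjusted p = 5.41e-11, edgeR), and STC2 had 149, 155 and 149 CPM in shCK5-22 libraries, against 96.95, 99.3 and 101 CPM in shControl libraries (0.61, SE 0.0325, adjusted p = 4.85e-12, edgeR). IGFBP3, a carrier of insulin-like growth factors, was lower, with 19.1, 22.8 and 19.0 CPM in shCK5-22 libraries, against 33.4, 36.3 and 34.2 CPM in shControl libraries (−0.77, SE 0.0659, adjusted p = 1.77e-08, edgeR). The number lower among the further targets fell to 5 without shCK5-22 replicate 3 or shControl replicate 2, and was 6 without shControl replicate 3.

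HIF partners and regulators gave 3 higher and 0 lower of 10 tested by edgeR, as they did by DESeq2 (3 higher and 2 lower at an unadjusted p under 0.05). With 34.2% of all genes called, 3 of 10 is near the background. ARNT2, a partner of the HIF alpha subunits, had 11.15, 10.5 and 12.9 CPM in shCK5-22 libraries, against 7.37, 7.08 and 7.53 CPM in shControl libraries (log2 fold change 0.65, SE 0.0891, adjusted p = 6.59e-06, edgeR). CREBBP, a coactivator, rose by 0.14 on the log2 scale (adjusted p = 0.00223, edgeR), as did ELOC, a part of the VHL ubiquitin ligase (0.14, adjusted p = 0.0227, edgeR), whose call was lost without shCK5-22 replicate 2 or 3 or shControl replicate 3 (0.0609, 0.132 and 0.133).

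Of 15 tested genes for other glycolysis isoforms and hexose transporters, 3 were higher and 3 lower, also near that background. SLC2A12, the gene for the transporter GLUT12 (chr6:133988697-134052636), had 4.43, 3.65 and 4.69 CPM in shCK5-22 libraries, against 13.2, 13.9 and 13.6 CPM in shControl libraries, 3.19-fold lower (log2 fold change −1.67, SE 0.0951, adjusted p = 1.27e-11, edgeR). That change was larger than the one of any glucose transporter or enzyme in the set. Of the exonic bases of SLC2A12, 38.85% lie opposite exons of TBPL1, so some SLC2A12 counts may be reads of that gene. SLC2A10 had 5.15, 3.98 and 4.81 CPM in shCK5-22 libraries, against 8.24, 8.53 and 7.74 CPM in shControl libraries (−0.81, adjusted p = 4.02e-06, edgeR), and BPGM, which makes 2,3-bisphosphoglycerate, fell by 0.40 on the log2 scale (adjusted p = 0.00233, edgeR).

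Downstream of pyruvate, 2 of 13 genes were higher and 1 lower, where 34.2% of all genes were called. With the replicate number as a block, 2 were higher and 3 lower, or 38.5%, against 37.4% of all genes. BSG, the chaperone of lactate transporters, had 592, 612 and 594 CPM in shCK5-22 libraries, against 504.5, 518 and 514.5 CPM in shControl libraries (log2 fold change 0.23, SE 0.0275, adjusted p = 1.28e-06, edgeR). PDP1, which activates pyruvate dehydrogenase, rose by 0.22 on the log2 scale (adjusted p = 4.95e-05, edgeR) and PDK3, a kinase that inhibits it, fell by 0.44 (adjusted p = 0.00329, edgeR).

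In the pentose phosphate pathway, which makes NADPH and ribose, RPIA and PGLS were lower in shCK5-22 libraries. RPIA, which makes ribose 5-phosphate, had 11.65, 13.85 and 14.9 CPM in shCK5-22 libraries, against 18.8, 20.15 and 19.4 CPM in shControl libraries (log2 fold change −0.54, SE 0.0778, adjusted p = 1.52e-05, edgeR). PGLS, the lactonase of the pathway, had 28.2, 26.7 and 27.1 CPM in shCK5-22 libraries, against 32.15, 32.9 and 34.3 CPM in shControl libraries (log2 fold change −0.28, adjusted p = 0.000218, edgeR). Neither gene's groups overlapped.

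Among 8 tested genes of gluconeogenesis and glucose sensing, 3 were higher and 0 lower by edgeR, by DESeq2 and at an unadjusted p under 0.05. That count too is near the 34.2% called among all genes. FBP1, which reverses the phosphofructokinase step, had 32.8, 31.0 and 33.6 CPM in shCK5-22 libraries, against 25.05, 24.1 and 23.5 CPM in shControl libraries (log2 fold change 0.42, SE 0.0533, adjusted p = 2.09e-06, edgeR). TXNIP and ARRDC4, arrestin-like genes that glucose induces and that reduce glucose uptake, were also higher. TXNIP had 143, 178 and 163 CPM in shCK5-22 libraries, against 102, 126 and 111 CPM in shControl libraries (0.51, SE 0.123, adjusted p = 0.0366, edgeR), a call lost without shCK5-22 replicate 2 or 3 or shControl replicate 1 or 3 (0.0868, 0.0976, 0.0742 and 0.113). ARRDC4 had 21.4, 25.5 and 24.2 CPM in shCK5-22 libraries, against 17.6, 20.9 and 18.3 CPM in shControl libraries (0.32, adjusted p = 0.00228, edgeR).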

How the data were processed

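The values are whole-number read counts per gene as the authors deposited them, in 1 table of 56505 rows and 6 library columns. The submitters' processing notes name cutadapt, STAR, SAMtools, Cufflinks and GRCh38. No source used here names the counting tool, its annotation or its strand setting, and 88.3% of counts from 1 to 20 are even. Row names that a spreadsheet had turned into dates (27 rows, 0.167% to 0.175% of counts) were left out.

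Counts were filtered with filterByExpr, scaled by TMM and tested over 18008 genes with edgeR 4.0.16 (robust quasi-likelihood, R 4.3.3), with Benjamini-Hochberg adjustment and a threshold of 0.05. The biological coefficient of variation was 5.01%. A count of 3 equals 0.046 to 0.0624 CPM, which covers counting error only. DESeq2 1.42.0, limma 3.58.1 (voom), other scalings and filters, a replicate block, a threshold of 0.01 and leaving out each library were the alternatives. Isoform shares of CPM per kilobase were compared by exact permutation. Labels do not say that replicates are separate cultures, so p-values measure only how these libraries vary, and that variation may be technical. Replicates differed by more than the sampling noise of independent counts (chi-square per degree of freedom 3.47 to 5.08, and 19.8 and 33.7 for the pairs with shCK5-22 replicate 1). Small counts were mostly even, so single counts may not be independent, which was not tested.

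Loci, exon lengths, overlaps and shared 50-base windows come from GENCODE 29 on GRCh38, and promoters from RefSeq (GRCh38.p14). All 37 genes are accounted for. From each neighbouring list, the text names up to 3 genes past the threshold with the largest fold change and a mean of at least 5 CPM. A gene that this rule names in the pentose phosphate list, and the counts of that list, are not reported here. The genes and lists were chosen with earlier results of these data known. The edgeR test was tried on simulated data with independent genes and a common coefficient of variation. Those data held no library that stood apart and no genes that varied together by replicate.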

Additional observations from a re-analysis of the deposited data

How the results depend on the processing

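Of the 17 members past the threshold, 9 kept the call under all 14 alternatives (ANGPTL4, ADM, KDM3A, P4HA2, EPAS1, PFKFB3, CA9, SLC2A1 and PFKFB4) and 8 lost it under at least 1, while 9 others passed under at least 1. With library size as the only scaling, 0 glycolytic enzymes were higher and 5 lower, against 2 and 3 with TMM, and limma-voom called 1 higher. At an adjusted p of 0.01, 0 glycolytic enzymes were higher and 1 lower, 1 other hypoxia target was lower, and 4 members were lower. Leaving out 1 library at a time gave 0 to 4 glycolytic enzymes higher and 0 to 6 lower, 1 to 3 other hypoxia targets lower, and 6 to 10 members higher and 3 to 11 lower. Among values near 0, 3 turned sign when 1 library was left out, while PKM and EGLN1, as near 0, did not: TPI1 ran between −0.073 and 0.013 (0.011 without shControl replicate 2), LDHA between −0.037 and 0.032 (0.019 without shControl replicate 2, and 0.001 with upper quartile scaling) and VEGFA between −0.016 and 0.073. The cause was not tested. Other losses came with library size only (HIF1A 0.0546, HK1 0.0628, PFKM 0.0674), no filter (HIF1A 0.0555, TXNIP 0.0691), DESeq2 (BNIP3L 0.0509, PFKL 0.0651), limma-voom (PFKM 0.0545) and RLE scaling (HK2 0.0517), each given as its adjusted p. No scaling moved the median of all genes beyond −0.02.

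The replicate numbers did not meet the rule for a pairing: deviations from the group means correlated at 0.201, 0.355 and −0.0601 for numbers 1, 2 and 3 over 10459 genes, and not every library correlated best with its own number. With the replicate number as a block, 3456 genes were higher and 3287 lower, with 14 members higher and 12 lower, among them 5 glycolytic enzymes higher and 7 lower. That was 74.3% of members tested and 75% of glycolytic enzymes tested, against 37.4% of all genes. The share with a block among genes with a mean of at least 100 CPM, as most of these enzymes have, was not computed. The enzymes gained were ALDOA, GAPDH, PGK1, PGAM1, ENO1, ENO2 and LDHB. NDRG1 (log2 fold change 0.40, adjusted p = 3.87e-09, edgeR) and BNIP3 (0.12, adjusted p = 0.0154, edgeR) then passed.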
